A study of Homo sapiens with 4 samples.

Results

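The genes described here encode the mitotic cyclins, the kinase CDK1 that they activate, and the enzymes that set its activity: CCNA2, CCNB1, CCNB2 and CCNF (cyclins), CDK1, WEE1 and PLK1 (kinases), and CDC25A, CDC25B and CDC25C (phosphatases). They were taken by gene symbol, and all 10 of them were found among the 15209 genes named from the deposited data. Transcripts without a symbol there were joined to CCNB1, CDK1 and CDC25C, as described below. RNA was sequenced from 4 libraries, 2 of each cell line. PANC-1 is a line of human pancreatic ductal adenocarcinoma, used here without transduction, and PZT-2 is 1 clone of PANC-1 that carries lentiviral shRNAs, driven by a U6 promoter, against both isoforms of the histone variant H2A.Z (H2A.Z.1 and H2A.Z.2) and was selected with puromycin. Both lines were grown in the same medium and harvested at the same range of passages. Effects of transduction, selection and cloning cannot be told apart from those of the knockdown in this comparison, and the study calls the 2 libraries of a line biological replicates of it. The study chose PZT-2 from its knockdown clones for low H2A.Z and low proliferation, and sequenced it as the clone with the strongest senescent phenotype. Values of a clone chosen in this way need not be those of other knockdown clones. Since PZT-2 is a single clone, p-values set the difference between the lines against the spread between libraries, estimated with information from all genes. They do not cover the spread between clones.

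Entry into mitosis depends on CDK1 bound to a B-type cyclin. WEE1 holds the complex inactive by phosphorylating CDK1, the CDC25 phosphatases remove that phosphate, and PLK1 helps to activate CDC25C and to inactivate WEE1. Cyclin A2 acts with CDK2 and CDK1 from S phase into early mitosis, and cyclin F, which does not act through a CDK, is the substrate receptor of a ubiquitin ligase. RNA of most of these genes rises from S phase to mitosis. Its regulation involves the DREAM and MuvB complexes, FOXM1, and promoter elements called the CHR and the CCAAT box. CDC25A is an E2F target of the G1 to S transition. The study followed how loss of H2A.Z affects proliferation and the cell cycle. It named CCNB1 and CCNB2 from these same libraries, so their change here is not independent evidence. It also reported lower CCNB1 by RT-qPCR against untransduced PANC-1. Its similar result against cells with a scrambled shRNA came from RNA-seq estimates, again of PZT-2, and not from RT-qPCR. Overexpression of H2A.Z isoforms in the knockdown clones raised cyclin B1 in most cases. By cytometry after serum starvation, the study found most H2A.Z-depleted cells held in G2 or mitosis. In bulk RNA, a change in the share of such cells and a change of RNA in each of them cannot be told apart.

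The targeted genes were lower in the clone. H2AFZ, which encodes H2A.Z.1, had normalized counts of 6386 and 6031 in PANC-1 against 2212 and 2257 in the clone (log2 fold change -1.47, SE 0.056, edgeR adjusted p = 6.22e-05). H2AFV, which encodes H2A.Z.2, had 3342 and 3450 against 2589 and 2716 (log2 fold change -0.36, SE 0.057, edgeR adjusted p = 0.00565). The libraries held between 12861483 and 15717582 estimated counts. Of 15089 genes tested, 4281 (28.4%) passed the threshold of 0.05 on the adjusted p, 2061 lower in PZT-2 (13.7%) and 2220 higher (14.7%). Scaling to GAPDH in place of all genes raised the median log2 fold change by 0.17 and turned the split into 906 lower and 3491 higher, and a fit on log2(TPM + 1) gave 1446 lower and 2368 higher. GAPDH itself was called lower (log2 fold change -0.18, edgeR adjusted p = 0.0245). The libraries of the 2 lines did not overlap for 10001 genes (66.3%). Of the epithelial and ductal markers fixed for this tissue, 5 of 8 were lower and 1 higher. Their summed level was 7370 and 7512 TPM (transcript abundance per length, scaled to the same sum in each library) in PANC-1 and 4183 and 4085 in PZT-2. KRT8, KRT18 and KRT19 were abundant in every library. MUC1 and SOX9 lay between 29.9 and 89.7 TPM, KRT7 between 8.44 and 11, and EPCAM between 6.75 and 8.44. CDH1 was at 3.03 and 4 TPM in PANC-1, and at 0 in PZT-2 replicate 1 and 0.527 in replicate 2. The mesenchymal marker VIM was abundant in both lines. FN1 lay between 0.0501 and 0.25 TPM and PDGFRB between 0.191 and 0.352, and COL1A2 had no value. Of 4 mesenchymal markers tested 2 were lower, VIM (log2 fold change -0.48) and COL1A1 (-1.75), and none higher, and the summed level of the list was 6407 and 6509 TPM in PANC-1 and 4879 and 4745 in PZT-2. Of 6 leukocyte and endothelial markers 4 had no value, PECAM1 was under 0.24 TPM in every library and CD68 was between 117 and 130 TPM. The part of the change in epithelial and mesenchymal markers in the results below was not tested.

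Promoter windows from RefSeq (GRCh38.p14), from 250 bases before to 50 after a start site, were found for 9 of the 10 genes, and not for WEE1. All motifs were read on both strands. The CHR letters TTTGAA were in 5 of the 9 (CCNB2, CCNF, CDC25C, CDK1 and PLK1) and in 15.2% of all 35116 windows. The variant TTTAAA was in 5 (CCNB1, CCNB2, CDC25B, CDK1 and PLK1) and in 12.2% of all windows. The CCAAT letters were in all 9 and in 34.6% of all windows. The E2F core was searched in 4 forms, the form TTCCCGC beside the form TTGGCGC, and likewise the form TTCGCGC beside the form TTGCCGC. At least 1 of these was in 5 (CCNB1, CDC25A, CDC25B, CDC25C and CDK1) and in 13% of all windows. The genes share no start site, but CDK1, CDC25B and CDC25C have several windows each, which raises the chance of a match. The element nearest upstream of a start site is given here with 12 bases on each side, 5′ to 3′ on the strand of the gene and with the element in capitals, because it lets the genes that were called be set beside those that were not.

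CCNB1, variant element 30 bases before the start, chr5:69167108-69167137, plus strand: agcagtgcggggTTTAAAtctgaggctagg

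CCNB2, 29 bases before the start, chr15:59105105-59105134, plus strand: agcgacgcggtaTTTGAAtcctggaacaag

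CCNF, 85 bases before the start, chr16:2429350-2429379, plus strand: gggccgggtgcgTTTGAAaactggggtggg

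CDC25C, 30 bases before a start, chr5:138331817-138331846, minus strand: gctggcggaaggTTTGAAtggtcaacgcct

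PLK1, 29 bases before the start, chr16:23678848-23678877, plus strand: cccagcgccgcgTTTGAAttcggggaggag

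CDK1, 13 bases before a start, chr10:60778453-60778482, plus strand: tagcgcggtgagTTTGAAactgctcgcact

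CCNA2 and CDC25A held neither set of letters in their windows. For CDC25A the 100 bases before the start are shown, with its CCAAT box, read on the other strand, and its E2F cores in capitals; the cores are TTGGCGC on the strand of the gene and, overlapping it, the same letters on the other strand.

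CDC25A, chr3:48188418-48188517, minus strand: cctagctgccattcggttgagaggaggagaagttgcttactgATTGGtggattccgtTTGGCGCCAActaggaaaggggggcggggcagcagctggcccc

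Of the 5 genes with TTTGAA, 3 were called lower in PZT-2 and 2 were not called, beside 13.7% of all genes tested called lower. No link between element and call was tested. The element was thus held by genes on both sides of the threshold. For each TTTGAA or TTTAAA element printed, an annotated exon of the same gene covers the base just before its start site. Such an element may therefore lie within a longer annotated transcript. These matches are descriptions of letters and were not tested as binding sites.

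Across the 10 genes the change was not uniform. CCNB1, CCNB2, CCNF and CDC25C were lower in PZT-2, CDC25A and WEE1 were higher, and CCNA2, CDK1, PLK1 and CDC25B did not pass the test. Thus 6 of 10 were called, 4 lower and 2 higher, where the share over all genes was 28.4% (13.7% lower and 14.7% higher). The median log2 fold change of the 10 was -0.13, beside 0.00086 over all genes tested, and was 0.05 with scaling to GAPDH. The libraries of the lines did not overlap for 8 of the 10, 5 lower and 3 higher, beside 66.3% of all genes, so this count is near the background. The changes were small: leaving the threshold as it was and asking for a 2-fold change as well, none of the 10 was called.

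**Figure D1:**
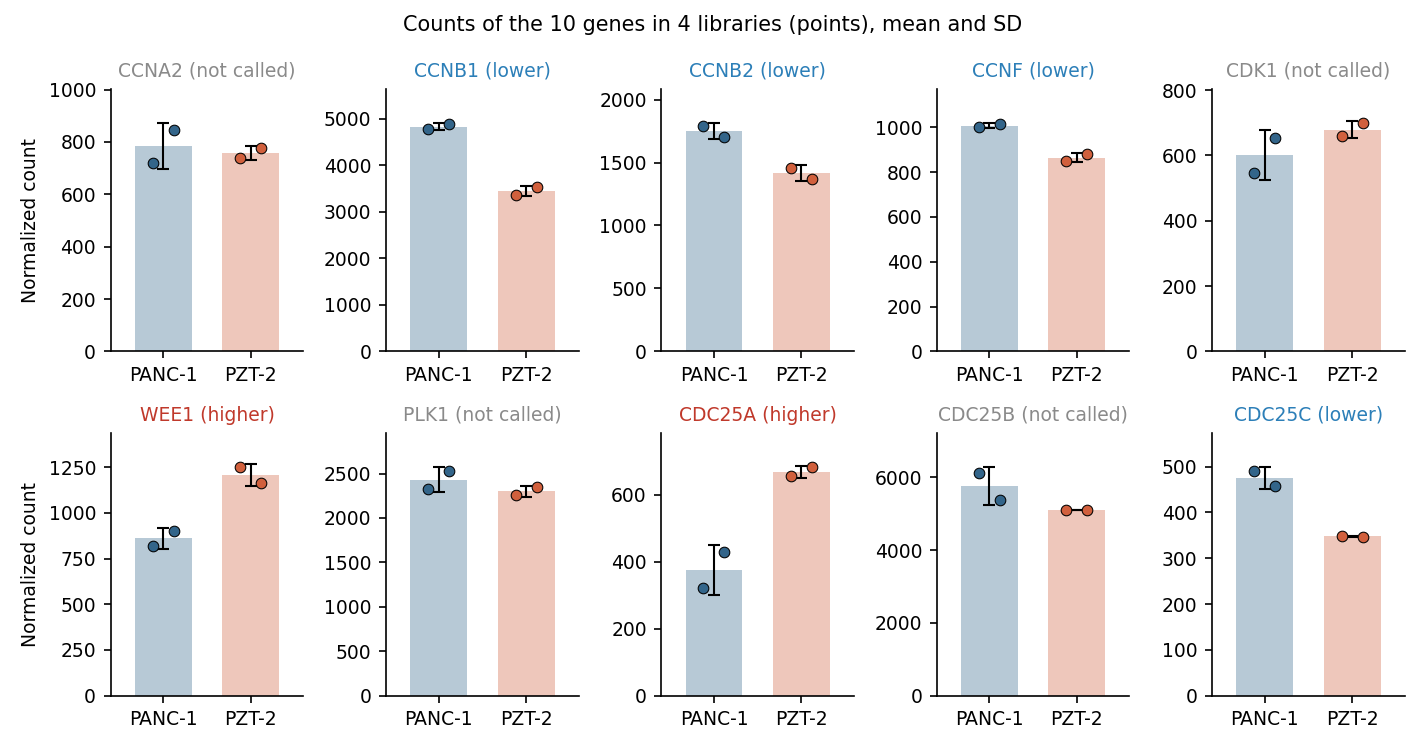
Normalized count (y axis, from 0) of each of the 10 genes in the 2 PANC-1 and 2 PZT-2 libraries (points), with the mean (bar) and SD (line). The points of the 2 lines are apart for all genes except CCNA2 and PLK1, and the SD of PANC-1 is wide for CDC25A, CDK1, CCNA2 and CDC25B.

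Among the cyclins, CCNB1, which encodes cyclin B1, had the clearest decrease. Its normalized counts were 4783 and 4884 in PANC-1 and 3367 and 3528 in PZT-2. Both PZT-2 libraries lay far under both PANC-1 libraries, and the level fell by 28.7% (log2 fold change -0.49, 95% interval -0.62 to -0.36, edgeR adjusted p = 0.0016). CCNB2, which encodes cyclin B2, had 1794 and 1705 in PANC-1 and 1459 and 1369 in PZT-2. Its groups were also apart, and it fell by 19.2% (log2 fold change -0.31, 95% interval -0.46 to -0.15, edgeR adjusted p = 0.0158). CCNF had 999.8 and 1015 against 850.3 and 880.6. The gap exceeded the spread between replicates, but the call was close to the threshold (log2 fold change -0.22, 95% interval -0.37 to -0.07, edgeR adjusted p = 0.0457) and was lost in 11 of 17 alternative settings. CCNA2, the gene of cyclin A2, had 720.9 and 845.5 in PANC-1 and 738.6 and 775.9 in PZT-2. The PZT-2 libraries lay between those of PANC-1, and its log2 fold change of -0.05 (95% interval -0.28 to 0.17, edgeR adjusted p = 0.73) changed sign in 4 alternative settings. Of the 4 cyclin genes 3 were therefore called lower and none higher, beside 13.7% lower and 14.7% higher over all genes tested. With so few genes this share was not tested, and with scaling to GAPDH only CCNB1 was called lower.

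The catalytic partner did not follow the B-type cyclins. CDK1 had 547.7 and 654.9 in PANC-1 and 660.1 and 698.8 in PZT-2. Both PZT-2 libraries were above both of PANC-1, the nearest pair by little, and the difference was not called (log2 fold change 0.17, 95% interval -0.07 to 0.42, edgeR adjusted p = 0.26). Without PANC-1 replicate 2 it was called higher (log2 fold change 0.30, edgeR adjusted p = 0.0481). Per length, CCNB1 was 7.62 and 6.52 times CDK1 in the PANC-1 libraries and 4.46 and 4.41 times in those of PZT-2, from levels in TPM. PLK1 had 2329 and 2527 in PANC-1 against 2254 and 2344 in PZT-2. Its groups overlapped, and its log2 fold change was -0.08 (95% interval -0.24 to 0.08, edgeR adjusted p = 0.413), or 0.09 with scaling to GAPDH. WEE1, the inhibitory kinase, had 821 and 901.5 in PANC-1 and 1248 and 1162 in PZT-2. Every PZT-2 library was above every PANC-1 library, and the level was 1.4 times that of PANC-1 (log2 fold change 0.48, 95% interval 0.30 to 0.67, edgeR adjusted p = 0.00566).

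The 3 CDC25 phosphatases moved in different ways. CDC25A, which acts mainly at the G1 to S transition, had 322.8 and 428.1 in PANC-1 and 655.1 and 682 in PZT-2. This was the largest change of the 10 genes, 1.77 times the level of PANC-1 (log2 fold change 0.82, 95% interval 0.51 to 1.14, edgeR adjusted p = 0.00589), although PANC-1 replicate 2 was itself 32.6% above replicate 1. CDC25B had 6118 and 5381 in PANC-1 and 5107 and 5097 in PZT-2. The PZT-2 libraries were almost equal and under both of PANC-1, whose own spread was wide, and the difference fell short of the threshold (log2 fold change -0.17, 95% interval -0.34 to -0.0034, edgeR adjusted p = 0.117). Without PANC-1 replicate 2 CDC25B was called lower (log2 fold change -0.27, edgeR adjusted p = 0.0035), and with scaling to GAPDH its log2 fold change was 0.0059. CDC25C, which activates CDK1 at the entry into mitosis, had 491.5 and 458.9 in PANC-1 and 348.2 and 346.9 in PZT-2. It fell by 26.8% (log2 fold change -0.45, 95% interval -0.66 to -0.24, edgeR adjusted p = 0.0109), and with scaling to GAPDH it was not called (log2 fold change -0.27, edgeR adjusted p = 0.0725).

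The calls of CCNB2 and CDC25C were lost with scaling to GAPDH, where CCNB2 had a log2 fold change of -0.13 (edgeR adjusted p = 0.204), and without either PZT-2 library. Without PZT-2 replicate 1 the adjusted p was 0.055 for CCNB2 and 0.0582 for CDC25C by edgeR, and without PZT-2 replicate 2 it was 0.132 and 0.0647, while their log2 fold changes stayed between -0.26 and -0.45. CCNB1, CDC25A and WEE1 were called with any 1 library left out.

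**Figure D2:**
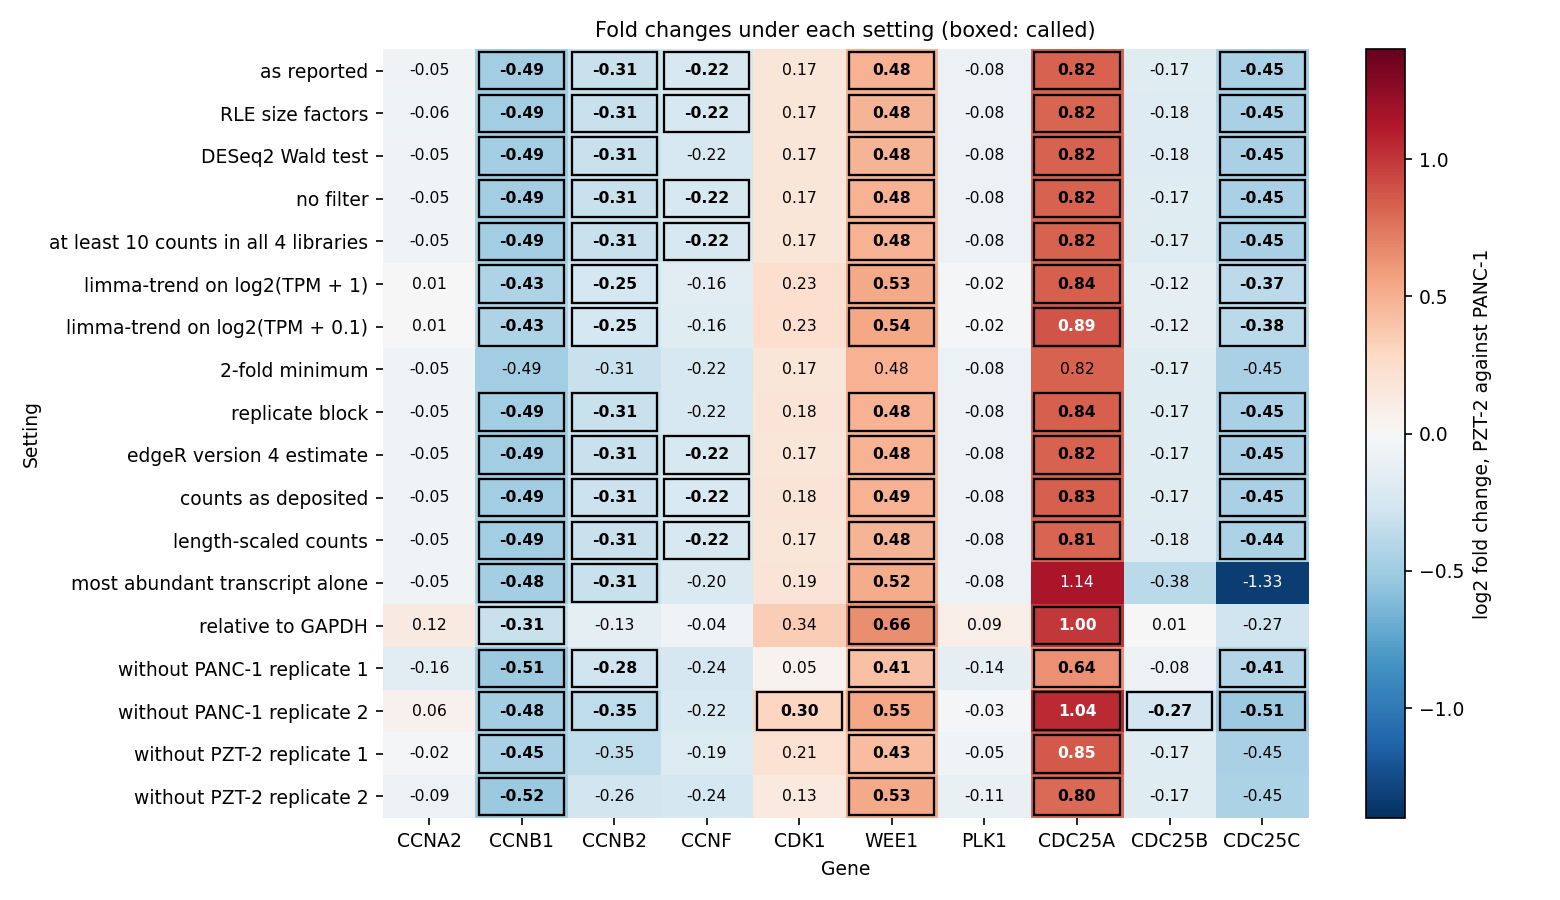
log2 fold change of PZT-2 against PANC-1 (colour and number) of each gene (columns) under the reported setting and each alternative (rows), with a box where the gene was called. CCNB1 and WEE1 are boxed in every setting except the 2-fold minimum, and CCNF is unboxed in 11 of its 17 alternatives.

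The level of each gene was also compared per length, in TPM computed from counts and effective lengths. In PANC-1 the order ran from CCNB1 (299 ± 10.6 TPM, SD, n = 2) through CDC25B (244 ± 18.3), CCNB2 (155 ± 2.02) and PLK1 (142 ± 11.3) to CDK1 (42.7 ± 6.19), CCNA2 (36.2 ± 4.83), WEE1 (33.5 ± 2.91), CCNF (30.5 ± 0.914), CDC25C (29.8 ± 0.697) and CDC25A (13.3 ± 2.81). The libraries of CDK1 and CCNA2, of CCNA2 and WEE1, and of CCNF and CDC25C overlapped, so these neighbours were not separated. In PZT-2 the order began with CDC25B (224 ± 0.628 TPM) and CCNB1 (222 ± 6.44), whose libraries overlapped, and went on with PLK1 (140 ± 3.36), CCNB2 (130 ± 6.31), CDK1 (50 ± 1.86), WEE1 (48.6 ± 2.6), CCNA2 (36.3 ± 1.13), CCNF (27.2 ± 0.546), CDC25A (24.4 ± 0.68) and CDC25C (22.9 ± 0.0993). CDK1 and WEE1 overlapped there. CDC25A was at 0.374 and 0.523 times the TPM of CDC25C in PANC-1 and at 1.04 and 1.09 times in PZT-2. Of the summed TPM of the 3 phosphatases CDC25A made up 3.79% and 5.55% in PANC-1 and 8.82% and 9.18% in PZT-2, and CDC25B made up 82.4% to 86.1% in every library.

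The chromosome on which a gene lies was described as well, since a clone can differ from its parent over long regions. CDC25A lies on chromosome 3, where 48.1% of the 834 other genes tested were called higher and 2.52% lower, with a median log2 fold change of 0.43. Among its 20 nearest tested neighbours 11 were higher and none lower, with a median of 0.42, and 2 of the 20 had a fold change at or above that of CDC25A. The part of this regional shift in the change of CDC25A was not tested. CCNB1 and CDC25C both lie on chromosome 5, where the median was -0.13 and 19.4% were lower and 8.48% higher. The neighbours of CCNB1 had a median of -0.25, with 7 of 20 lower, and those of CDC25C a median of -0.14, with 6 of 20 lower. CCNB2, called lower, lies on chromosome 15, where the median was 0.24 and 27.3% were higher, although its own neighbours had a median of -0.18. For WEE1 the neighbours had a median of 0.08 and chromosome 11 one of -0.05. CCNF and PLK1 share chromosome 16, with a median of 0.0010.

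**Figure D3:**
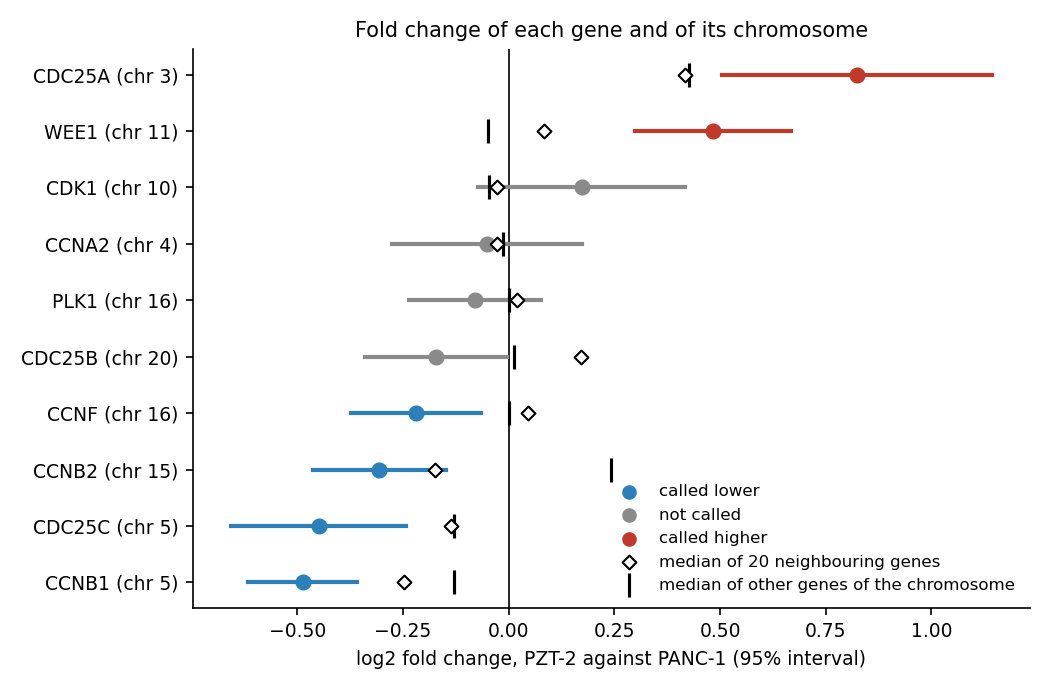
log2 fold change of PZT-2 against PANC-1 (x axis) of each gene (point, with its 95% interval), beside the median of its 20 neighbouring genes (diamond) and of the other tested genes of its chromosome (tick). CDC25A lies right of a chromosome median that is itself at 0.43, and CCNB2 lies left of 0 on a chromosome whose median is 0.24.

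The 10 genes had 29 transcripts with values, all of which were tested one by one. A further 3 transcripts of CDK1, 2 of CDC25B and 2 of CDC25C carried the symbol but had no values. By edgeR 0 of the 29 were called, beside 45 of 30403 transcripts (0.148%) in all. At an unadjusted p under 0.05 there were 7, beside 5614 of all transcripts (18.5%), and DESeq2 called 7, beside 4400 (14.5%). The main transcript carried the change of CCNB1 (NM_031966, 4656 and 4856 normalized counts in PANC-1 and 3314 and 3500 in PZT-2) and that of WEE1 (NM_003390, 789.2 and 868.9 against 1239 and 1131). CDC25A was divided between 2 transcripts. NM_001789 had 183.3 and 377.7 in PANC-1 and 653.8 and 585.4 in PZT-2, whereas NM_201567 had 139.4 and 52.7 against 0 and 94.6. The higher counts of CDC25A in PZT-2 lay in the first of them, and the share of the second differed widely within each line. For CDC25C, NM_001287582 had 349.7 and 223.3 in PANC-1 and 85.4 and 141.9 in PZT-2. A pair of other CDC25C transcripts, NM_001364027 and NM_001364028, were at 0 to 0.91 in PANC-1 and at 17.7 to 29.6 in PZT-2. CDC25B had 10 transcripts, of which NM_001287519 was at 13.5 and 513 within PANC-1 alone. Such shares rest on how reads that fit several transcripts were divided.

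**Figure D4:**
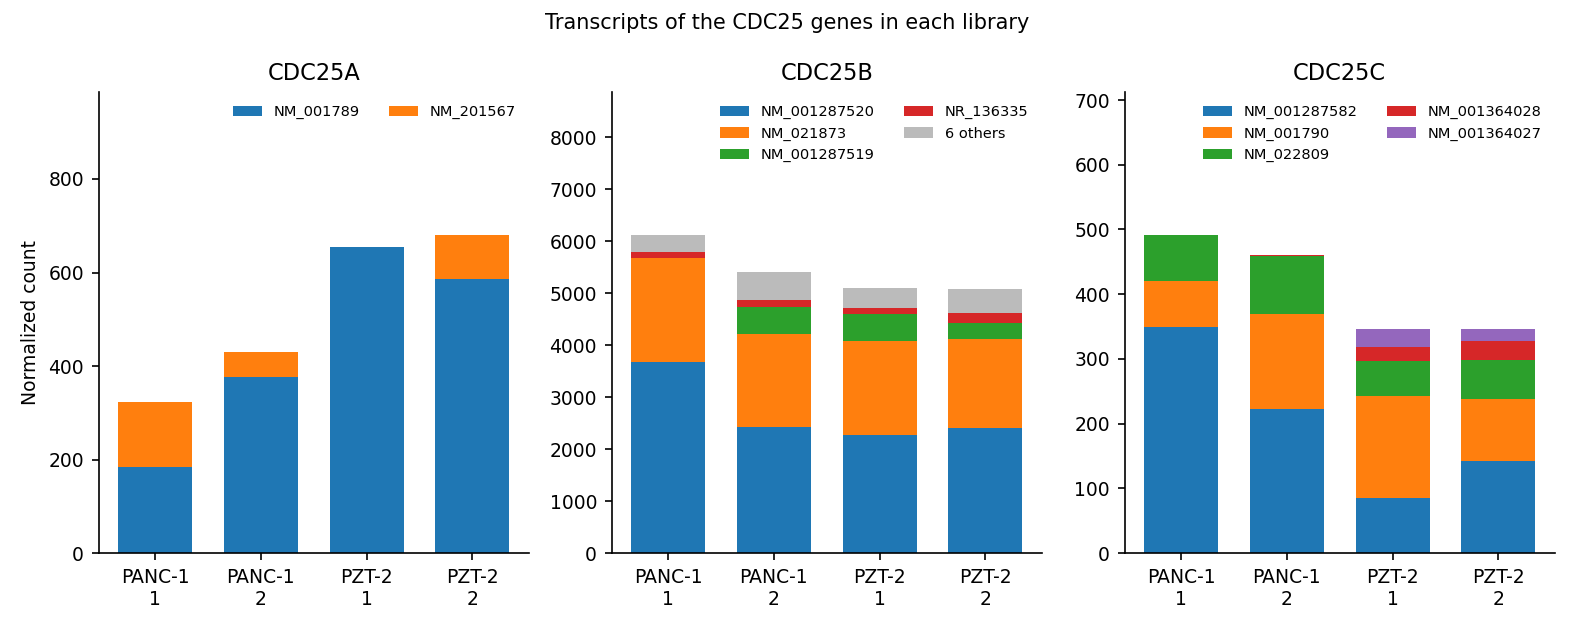
Normalized count (y axis, from 0) of the transcripts of CDC25A, CDC25B and CDC25C, stacked in each of the 4 libraries. The whole height of CDC25A is greater in PZT-2 and that of CDC25C smaller, while the division among transcripts differs between replicates, as for NM_001287519 of CDC25B.

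Other genes of the pathway were counted in lists, to be read beside the 28.4% of all genes called (13.7% lower and 14.7% higher). With 10 to 13 genes in a list, 1 call more or fewer moves its share widely, and no list was tested against all genes. The medians of the 6 lists lay between -0.17 and -0.01, and with scaling to GAPDH all of them were above 0, between 0.0042 and 0.16. Of 10 tested partners and kin of the enzymes, 3 were lower and 1 higher, with a median log2 fold change of -0.15. The higher one was CDK2, the S phase kinase (log2 fold change 0.42, SE 0.059, edgeR adjusted p = 0.00364). The lower ones were PLK2 (log2 fold change -0.43), PKMYT1, the other inhibitory kinase of CDK1 (-0.30, SE 0.062, edgeR adjusted p = 0.0139), and CKS1B, a small subunit that binds CDKs (-0.21). WEE1 and PKMYT1, which share CDK1 as their substrate, therefore moved in opposite directions, but with scaling to GAPDH PKMYT1, PLK2 and CKS1B were no longer called. In the list of Aurora A, BORA and the Greatwall pathway 4 of 12 were lower and none higher (median -0.08). These were ENSA (log2 fold change -0.43), an inhibitor of the phosphatase PP2A that Greatwall activates, the phosphatase subunits PPP1CA (-0.40) and PPP2R1A (-0.26), and TPX2, the activator of Aurora A (-0.37). With scaling to GAPDH 3 were lower and 2 higher.

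Among the transcription factors and DREAM or MuvB subunits 2 of 13 were lower and none higher (median -0.13). FOXM1, an activator of G2 and mitotic genes, had a log2 fold change of -0.47 (SE 0.074, edgeR adjusted p = 0.00534), and NFYC, a subunit of the factor that binds CCAAT boxes, had -0.22. With scaling to GAPDH FOXM1 was still lower and MYBL2 was higher. Of 10 checkpoint kinases and CDK1 inhibitors 2 were lower and 3 higher (median -0.06). GADD45A (log2 fold change 0.92, SE 0.13, edgeR adjusted p = 0.00334) and CDKN1A (0.74, SE 0.16, edgeR adjusted p = 0.0153), which encode inhibitors of cyclin and CDK complexes, rose, as did the checkpoint kinase CHEK2 (0.36). ATM, the kinase that responds to DNA breaks, was lower (-0.71, SE 0.15, edgeR adjusted p = 0.0144), and SFN, which encodes stratifin, was also lower (-0.28, SE 0.064, edgeR adjusted p = 0.0206) and was not called with scaling to GAPDH.

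In the list of ubiquitin ligases and adaptors 3 of 11 were lower and 1 higher (median -0.17). The lower ones were CDC20, an activator of the anaphase-promoting complex that marks cyclin B for degradation (log2 fold change -0.40, SE 0.05, edgeR adjusted p = 0.00246), and the conjugating enzymes UBE2S (-0.37) and UBE2C (-0.27). USP7, a deubiquitinase, was higher (0.51). With scaling to GAPDH 2 were lower, without UBE2C, and 2 higher, with CUL1. For S phase and proliferation, 3 of 12 were lower and 3 higher (median -0.01). TOP2A, a topoisomerase abundant in G2, had the largest fold change of that list (-0.73, SE 0.11, edgeR adjusted p = 0.00401), and the higher genes were MCM2 (0.33), MCM4 (0.33) and TYMS (0.33), which serve DNA replication and nucleotide synthesis. MCM7 (-0.31) and MCM5 (-0.28), subunits of the same helicase as MCM2 and MCM4, were lower. With scaling to GAPDH only TOP2A was lower and 6 were higher.

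**Figure D5:**
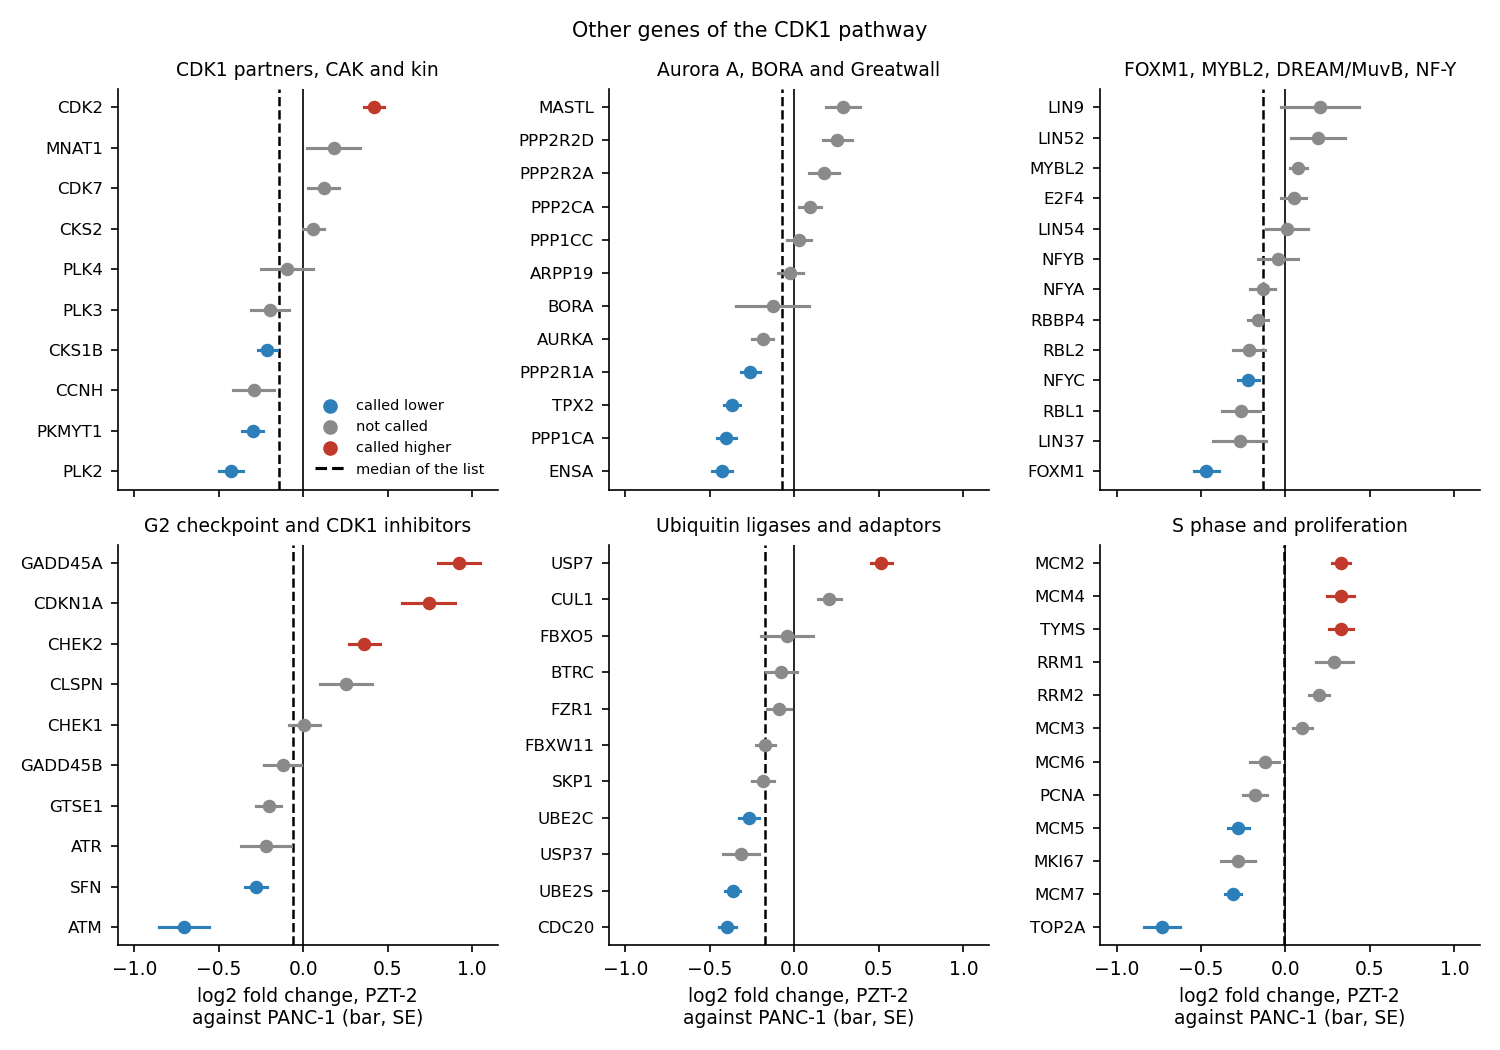
log2 fold change of PZT-2 against PANC-1 (x axis) of each tested gene (point, with its SE) in 6 lists of the CDK1 pathway, with the median of each list (dashed line). Called genes lie on both sides of 0 in 4 lists, and in the Aurora A and the transcription factor lists the called genes all lie left of 0.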

How the data were processed

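RNA of 2 PANC-1 and 2 PZT-2 libraries (stranded mRNA kit, paired reads) was used. The authors used Trim Galore 0.4.1 for trimming, kallisto 0.43.0 with RefSeq transcripts for quantification and sleuth 0.29.0 for their own tests. The submitters' processing notes list hg19, and the release of the transcript index is not given in the sources used here. The deposited values used are the estimated counts of 31077 transcripts and their effective lengths. The deposited TPM column and the columns of sleuth's comparison (effect, p and q values) were not used, except for the gene symbols.

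The estimated counts carried 1 scaling factor in each library (1.16 and 0.935 for PANC-1, 1.03 and 1.01 for PZT-2). It was undone by finding the factor that made the largest share of low values of genes with 1 transcript whole (within 0.01). That share was between 40.9% and 42.8%, beside 20.2% to 21.8% for the next best factor. Undoing the scaling gave 12861483, 15717582, 13955526 and 14175668 counts in all. Counts were summed by gene: 27049 transcripts by symbol and 3925 by accession (RefSeq table of GRCh38.p14), while 103 transcripts with 0.0466% of counts stayed unnamed. Of the 10 genes, CCNB1, CDK1 and CDC25C include transcripts joined by accession.

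Rounded sums with at least 5 counts in at least 2 libraries were tested with edgeR 4.0.16 (TMM, quasi-likelihood) in R 4.3.3 with Benjamini-Hochberg adjustment over all genes, or over all transcripts, and a threshold of 0.05. The script was tested on simulated data. Normalized counts are scaled to the mean library. An exact permutation test of 2 against 2 libraries cannot go below p = 0.333, so none was made. Replicates of a line differed by more than sampling noise (chi-square per degree of freedom 5.91 and 3.39). Estimated counts measure reads, so their precision is limited by counting and by the 2 libraries of each line.

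The text names the 10 genes, the targeted genes, GAPDH and, in each list, up to 4 called genes with the largest fold change. MCM5, MCM7 and SFN, which complete the called genes of their lists, MYBL2 and CUL1, which were called only in alternatives, and the single markers were named after their values were seen. The genes, lists, motifs and tests were chosen with earlier results of these data known. Alternatives used limma 3.58.1, DESeq2 1.42.0, other filters, scalings and transcripts, and each library left out. Libraries of PSCR cells were not analysed here.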

Additional observations from a re-analysis of the deposited data

How the results depend on the processing

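With a 2-fold minimum 834 genes were called, and 0 of the 10 genes lower and 0 higher. With the most abundant transcript alone 2126 genes were called, 2 of the 10 lower and 1 higher; CDC25A (log2 fold change 1.14) and CDC25C (-1.33) were then not called, by an edgeR adjusted p of 0.0988 and 0.0734. Relative to GAPDH 1 of the 10 was lower, and CCNA2 (0.12), PLK1 (0.094) and CDC25B (0.0059) changed sign. CCNA2 also changed sign on log2(TPM + 1) (0.0094), on log2(TPM + 0.1) (0.0097) and without PANC-1 replicate 2 (0.063, within a range of -0.16 to 0.063 over the 4 libraries left out). Leaving out 1 library in turn gave 2020 to 4569 genes called, 1 to 4 of the 10 lower and 2 to 3 higher; the 2 lowest counts of genes came without a PZT-2 library (2454 and 2020). The line left with 1 library was assumed to vary like the other. Of the 29 transcripts DESeq2 called 7, and a filter of at least 10 counts in all 4 libraries gave 2, against 0. The cause of these moves was not tested, except that a fold minimum lowers the count by construction. With the replicate number as a block (replicate block) 3727 genes were called, 3 of the 10 lower and 2 higher. CCNF was then not called (edgeR adjusted p = 0.0802). Libraries of the same number did not deviate together over all genes (correlation -0.023). This correlation cannot show whether they shared a preparation, and the sample labels used here do not say. CCNB1, CDK1 and CDC25C from transcripts with a symbol alone, an alternative chosen after seeing the data, had log2 fold changes of -0.47, 0.19 and -0.66 and kept their side of the threshold. Of the 173 values of single genes under alternatives, 141 kept direction and call, 24 lost the call, 2 gained it and 6 changed sign. With 2 libraries in each line, changes as small as those of CCNF, CDC25B and CDK1 lie at the limit of what could be separated.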
